A study of Mus musculus with 6 samples.

Results

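The cathepsins Ctsb, Ctsc, Ctsd, Ctsh, Ctsk, Ctsl and Ctsz and the asparaginyl endopeptidase legumain (Lgmn) are proteases of the lysosome. Their 8 genes were chosen by name, and all 8 were found among the 21878 genes of the deposited count table. RNA had been sequenced from tumour-associated macrophages of the mouse, sorted 14 days after injection of MC38 cells, a mouse colon carcinoma line. The 3 libraries labelled TRMT61A-KO came from mice with floxed Trmt61a alleles and LysM-Cre, a recombinase expressed from the lysozyme M locus in macrophages, monocytes and neutrophils. The 3 libraries labelled TRMT61A-WT came from mice with the same floxed alleles and no Cre, so both groups carry the floxed alleles, and the WT group does not control for Cre itself. Strain, age, sex and the sorting gate are not given in the sources used here. Whether each library came from its own mouse is not stated either, so the p-values speak only to how far these libraries spread, and that spread may be technical.

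Macrophages hold these enzymes at high levels and use them to break down what they engulf. Most cathepsins are made as inactive proenzymes, tagged with mannose 6-phosphate in the Golgi, delivered to the lysosome and activated there by removal of the propeptide. They also trim proteins for presentation on MHC class II and cut endosomal Toll-like receptors into their active form, and when secreted they can degrade matrix around a tumour. Cystatins and some serpins inhibit them, and the transcription factors TFEB, TFE3 and MITF switch on lysosomal genes through a motif built around CACGTG.

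Upstream sequences show where that core motif occurs. RefSeq start sites on GRCm38.p6 were listed for 6 of the 8 genes (Ctsc, Ctsd, Ctsk, Ctsl, Ctsz and Lgmn), with 7 entries in all, and the 250 bases before each start were searched on both strands. CACGTG occurred in 3 of these 7 windows (of Ctsd, Ctsl and Lgmn), against 6.02% of 32851 windows of the same length. These sites are shown because Ctsd and Ctsl, which hold 3 of the 4, were the only genes of the family whose estimated difference between genotypes was positive. That choice was made on these same data, and neither gene was called. Lgmn, which holds the other site, had a negative estimate (log2 -0.14), and Ctsb and Ctsh had no window to search. Neither enrichment of the motif nor a link between sites and estimates was tested. Each site is printed as 30 bases on the gene's strand, with CACGTG in capitals.
Ctsd, first base 245 before the start: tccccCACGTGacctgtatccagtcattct
Ctsd, first base 98 before the start: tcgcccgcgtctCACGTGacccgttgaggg
Ctsl, first base 236 before the start: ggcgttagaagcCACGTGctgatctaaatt
Lgmn, first base 49 before its other start: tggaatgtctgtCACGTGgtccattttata
The Ctsd stretches lie at chr7:142388048-142388077, upstream of the gene, and at chr7:142387908-142387937, in an annotated UTR of a longer transcript. The second of them is part of the longer palindrome TCACGTGA, which 0.785% of all windows hold and which overlaps CACGTG. The Ctsl stretch, chr13:64370739-64370768, lies in an annotated UTR, since the RefSeq start lies 370 bases inside the gene as GENCODE draws it. The Lgmn stretch, chr12:102439124-102439153, is intronic, 721 bases of the gene lying before that start.

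Ctsc and Ctsz had the most negative estimates, and no CACGTG was in their windows, which says nothing about the factors themselves. Ctsk had no CACGTG in its window either, and its estimate (log2 -0.14) was like that of Lgmn, which holds a site. The windows of Ctsc and Ctsz are printed for comparison, with GGGCGG, the GC box, or its reverse complement CCGCCC in capitals.
Ctsc, chr7:88277835-88278084, plus strand: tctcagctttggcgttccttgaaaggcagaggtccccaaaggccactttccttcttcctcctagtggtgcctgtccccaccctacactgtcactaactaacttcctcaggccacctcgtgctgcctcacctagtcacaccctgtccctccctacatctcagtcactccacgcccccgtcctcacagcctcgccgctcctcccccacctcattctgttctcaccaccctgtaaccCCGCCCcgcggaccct
Ctsz, chr2:174439040-174439289, minus strand: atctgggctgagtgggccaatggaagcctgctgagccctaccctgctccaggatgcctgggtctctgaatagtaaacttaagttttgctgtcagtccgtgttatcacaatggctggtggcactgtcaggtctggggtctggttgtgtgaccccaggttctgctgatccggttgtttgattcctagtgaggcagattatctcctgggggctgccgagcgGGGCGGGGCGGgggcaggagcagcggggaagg
The GC box occurred in 32.7% of all windows and in 4 of the 7 windows searched here (of Ctsc, Ctsd, Ctsz and Lgmn). No binding was measured in these libraries, so the matches are letters in the sequence and nothing more.

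Totals ran from 18839026 to 20313597 counts per library. Trmt61a itself had 138 to 157 counts in WT and 33 to 50 in KO and fell by 1.81 on the log2 scale (SE 0.197, edgeR adjusted p = 0.0426), so each library followed its label. Its log2 value stayed between -1.69 and -1.94 in 16 alternatives, with unadjusted p-values of 5.14e-05 or less. The call over all genes did not hold when a library was left out, except KO replicate 2. The adjusted p was 0.130 without the first WT library, 0.0707 without the second, 0.314 without the third, 0.111 without the first KO library and 0.140 without the third. It was also above the threshold with a filter on CPM above 1 (0.0571), limma-voom (0.0522) and the replicate number as a block (0.103). The macrophage genes Adgre1, Csf1r and Cd68 were at 445 to 603, 1245 to 1578 and 529 to 593 CPM (read counts scaled to a common library size), and 10 macrophage genes summed to 10780 to 12260 CPM. Summed markers of other cells were far lower, at 55.9 to 102 CPM for 13 neutrophil genes, 17.3 to 43.8 for 10 dendritic cell genes, 17.8 to 58.6 for 12 T and NK cell genes and 1.04 to 2.73 for 7 B and plasma cell genes. Sums were 252 to 392 CPM for 8 fibroblast genes, 51.3 to 78.8 for 6 endothelial genes and 84.8 to 131 for 6 osteoclast genes, and the sums of the genotypes overlapped in each of these lists. Single genes differed more than the sums. Of 7 neutrophil genes tested, 5 had positive values, the median log2 was 0.55 and 3 were at an unadjusted p under 0.05, all higher, with none called. Mmp8 was at 8.06, 14.2 and 11.0 CPM in WT and 15.0, 15.4 and 18.4 CPM in KO, and Ltf at 0.255, 0.353 and 0.150 against 0.675, 0.892 and 1.23 CPM, both without overlap, while S100a8 overlapped (log2 0.69, SE 0.297). Csf3r, at 32.7 to 60.3 CPM, made up most of the neutrophil sum, and Ly6g, Camp and Elane had 0 to 3 counts. Of 11 T and NK cell genes tested, 10 had positive values, with a median of 0.35 and 1 at an unadjusted p under 0.05. KO replicate 2 was the highest library for each of these 11 genes. The T and NK cell sum was 20.3, 22.4 and 31.1 CPM in WT and 17.8, 58.6 and 27.3 CPM in KO, so only KO replicate 2 lay above the WT range. What these cells contributed to the proteases was not tested. The 6 epithelial genes summed to 77.0 to 141 CPM, nearly all of it Cdh1, while Epcam had 0 to 8 counts and Cldn4 had 0 in each library. KO replicate 1 stood apart in the MHC class II genes, as given below.

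The family made up a large share of the RNA. Its 8 genes took 1.34% to 1.56% of all counts in WT and 1.36% to 1.48% in KO, and 5 of them (Ctsb, Ctsc, Ctsd, Ctsl and Lgmn) ranked between 16 and 53 of 12136 tested genes by mean CPM. Counts per library ran from 7354 for the lowest library of Ctsh to 76928 for the highest of Ctsc. Ctsk was far below the others, with 339 to 636 counts, and ranked 6286.

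Levels of different genes were compared per kb of the longest mRNA that GENCODE pairs with a curated RefSeq entry. Ctsd was highest in WT at 1253 ± 111 CPM per kb (SD, n = 3), followed by Ctsc at 1051 ± 147, Lgmn at 827 ± 121, Ctsz at 789 ± 42.8, Ctsl at 784 ± 63.0 and Ctsb at 730 ± 70.7. Each of these overlapped its neighbour in that order in WT. Below them, with no overlap, came Ctsh at 267 ± 17.7 and Ctsk at 17.1 ± 3.40 CPM per kb. In KO the level of Ctsl was 980 ± 121 CPM per kb, and it stood at place 2 of 8 where it had been at place 5 in WT. Its KO libraries, at 1114, 880 and 947 CPM per kb, overlapped those of Ctsc, at 876, 931 and 949. The order of the genes also depends on the length used. With all annotated exons of a gene merged, Ctsl is at 238 CPM per kb in WT and 298 in KO, Ctsc at 583 and 509, Ctsb at 572 and 535 and Ctsh at 95.8 and 92.4. Ctsc then comes after Ctsz (789) and Lgmn (708) in WT, and Ctsd (1133) stays first. Ctsl then lies below Ctsb and Ctsc and above Ctsh in both genotypes, so its change of place is not seen with that length.

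None of the 8 genes passed the test of KO against WT, in which 2 of 12136 genes (0.0165%) were called with edgeR at an adjusted p under 0.05. At an unadjusted p under 0.05 there was 1 of 8, Ctsl, against 6.92% of all tested genes and 14.5% of the 110 genes with a mean of at least 1000 CPM. The groups did not overlap for 1 of 8, again Ctsl, against 12.4% of all tested genes. Log2 fold changes were negative for 6 and positive for 2, with a median of -0.119, where the median of all tested genes was -0.001 and 50.2% were negative. The count at an unadjusted p under 0.05 was 0 without WT replicate 3, 2 without KO replicate 1 and 3 without WT replicate 2.

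**Figure D1:**
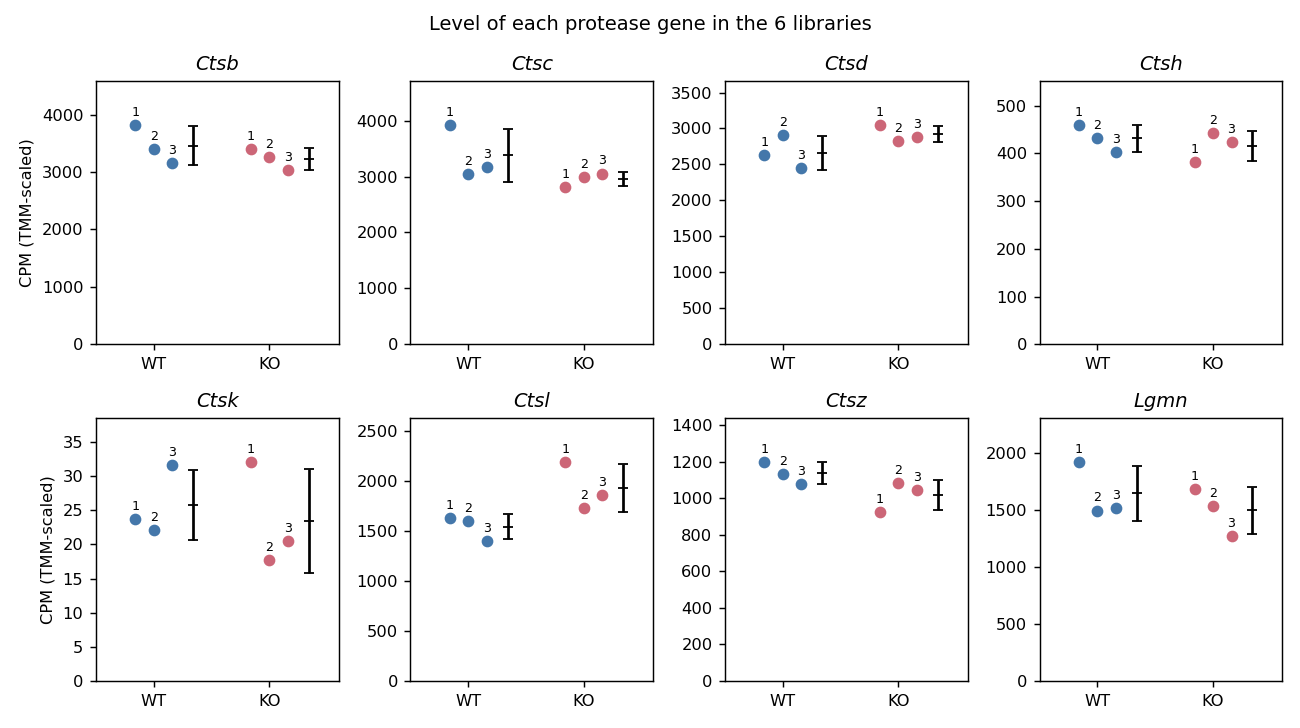
Level of each of the 8 genes in CPM (linear axis from 0, TMM-scaled) in the 3 WT and 3 KO libraries, with the replicate number above each point and the mean ± SD of 3 libraries beside it. The 3 KO points of Ctsl, at 1734 to 2196 CPM, lie above its 3 WT points, at 1403 to 1630 CPM, and the groups overlap for the other 7 genes.

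Ctsl encodes a cysteine endopeptidase of broad range that can degrade the invariant chain of MHC class II and matrix proteins. Its levels were 1630, 1605 and 1403 CPM in WT and 2196, 1734 and 1866 CPM in KO. All 3 KO libraries were therefore above all 3 WT libraries, with KO replicate 1 the highest and WT replicate 3 the lowest. The fold change was 1.25 (95% interval 1.07 to 1.47; log2 0.32, SE 0.103), and it did not pass over all genes (edgeR adjusted p = 0.701, unadjusted p = 0.011, rank 170 of 12136). The exact permutation test of the 6 values gave p = 0.1, two-sided, the smallest that 3 libraries against 3 allow. Without KO replicate 1 the log2 value was 0.22 and the unadjusted p 0.0475, and without WT replicate 3 they were 0.26 and 0.0584. DESeq2 gave an adjusted p of 0.285, the lowest among 16 alternatives, and the highest was 0.999. Within the gene (chromosome 13, 64359337 to 64370890, minus strand, GRCm38), GENCODE places an antisense RNA and a processed pseudogene that were not in the count table, so reads assigned to Ctsl may include theirs.

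Ctsd encodes the main aspartic protease of the lysosome, which works by a different mechanism from the cysteine cathepsins and helps activate several of them. It was at 2636, 2913 and 2444 CPM in WT and at 3050, 2828 and 2885 CPM in KO. The lowest library of each group was 2444 in WT and 2828 in KO, but WT replicate 2 lay within the KO range. Its fold change was 1.10 (95% interval 0.960 to 1.25; log2 0.13, SE 0.0859, edgeR adjusted p = 0.779). Without WT replicate 2 the log2 value was 0.21, with an unadjusted p of 0.0377, and without WT replicate 3 it was 0.074. GENCODE places a protein-coding gene, Gm49369, on the same strand over Ctsd, and it was not in the count table, so reads assigned to Ctsd may include its reads. Ctsd lies on chromosome 7 (142375911 to 142388038, minus strand), as does Ctsc (88278085 to 88310888, plus strand).

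Ctsb, Ctsc, Ctsh, Ctsz and Lgmn had lower means in KO and none passed. Ctsb, a cysteine protease that can act both inside a chain and on its carboxyl end, was at 3823, 3408 and 3159 CPM in WT and 3411, 3259 and 3034 CPM in KO (log2 -0.098, SE 0.0917, edgeR adjusted p = 0.835). The groups overlapped between 3159 and 3411 CPM. WT replicate 1 was the highest library, and without it the log2 value was -0.020, against -0.16 without WT replicate 3 and -0.051 without KO replicate 3. Ctsb lies on chromosome 14 (63122462 to 63145923, plus strand).

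Ctsc encodes dipeptidyl peptidase I, which activates the granule serine proteases of neutrophils, mast cells and cytotoxic lymphocytes. Values were 3925, 3049 and 3175 CPM in WT and 2820, 2999 and 3055 CPM in KO. WT replicate 1 was above the other 5 libraries, which lay between 2820 and 3175 CPM. Its fold change was 0.874 (95% interval 0.746 to 1.03; log2 -0.19, SE 0.103, edgeR adjusted p = 0.725). Without WT replicate 1 the log2 value was -0.072, and without WT replicate 2 it was -0.26 with an unadjusted p of 0.033.

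Ctsz, also named cathepsin X, removes single residues from the carboxyl end of proteins. It was at 1201, 1135 and 1077 CPM in WT and at 926, 1082 and 1043 CPM in KO, where only KO replicate 2 reached the WT range. The fold change was 0.894 (95% interval 0.786 to 1.02; log2 -0.16, SE 0.0836, edgeR adjusted p = 0.725), and it was -0.099 on the log2 scale without KO replicate 1. Ctsh, chiefly an aminopeptidase, was at 460, 431 and 403 CPM in WT and 382, 442 and 423 CPM in KO. These groups overlapped (log2 -0.053, SE 0.0823, edgeR adjusted p = 0.896), and the value ran from -0.10 without WT replicate 3 to 0.004 without KO replicate 1. Ctsz lies on chromosome 2 (174427493 to 174439039, minus strand) and Ctsh on chromosome 9 (90054152 to 90076089, plus strand).

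Lgmn encodes legumain, which cuts after asparagine and converts several cathepsins to their mature chains. Its values were 1923, 1494 and 1519 CPM in WT and 1684, 1531 and 1269 CPM in KO, so WT replicate 1 and KO replicate 3 were the extremes and the others mixed. The log2 fold change was -0.14 (95% interval -0.43 to 0.15; SE 0.128, edgeR adjusted p = 0.835). It was -0.010 without WT replicate 1, -0.029 without KO replicate 3 and -0.23 without KO replicate 1. Lgmn lies on chromosome 12 (102394084 to 102439813, minus strand), the chromosome of Trmt61a (111678105 to 111683902, plus strand).

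Ctsk, the collagen-degrading cathepsin of osteoclasts that fibroblasts can also make, was the lowest of the family. The gene lies on chromosome 3 (95499256 to 95509362, plus strand). It was at 23.8, 22.1 and 31.7 CPM in WT and 32.2, 17.8 and 20.5 CPM in KO. The highest and the lowest library were both KO. The log2 fold change was -0.14 with a wide 95% interval of -0.68 to 0.40 (SE 0.232, edgeR adjusted p = 0.906). It ranged from -0.43 without KO replicate 1 to 0.033 without WT replicate 3. The fibroblast genes summed to 261, 392 and 286 CPM in WT and 252, 276 and 366 CPM in KO. Col3a1 was the largest part of the highest sum, at 189 CPM in WT replicate 2. Of 6 osteoclast genes, 4 were measured, with Acp5 at 43.9 to 55.1 CPM, Dcstamp at 20.6 to 51.0, Atp6v0d2 at 12.3 to 23.1 and Ocstamp at 2.27 to 6.17, and the genotypes overlapped for each. Calcr had 0 counts in each library, and Oscar had 0 to 3. How far other cells contributed to Ctsk was not tested, and fewer cells of a type and less RNA per cell cannot be told apart in bulk RNA.

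**Figure D2:**
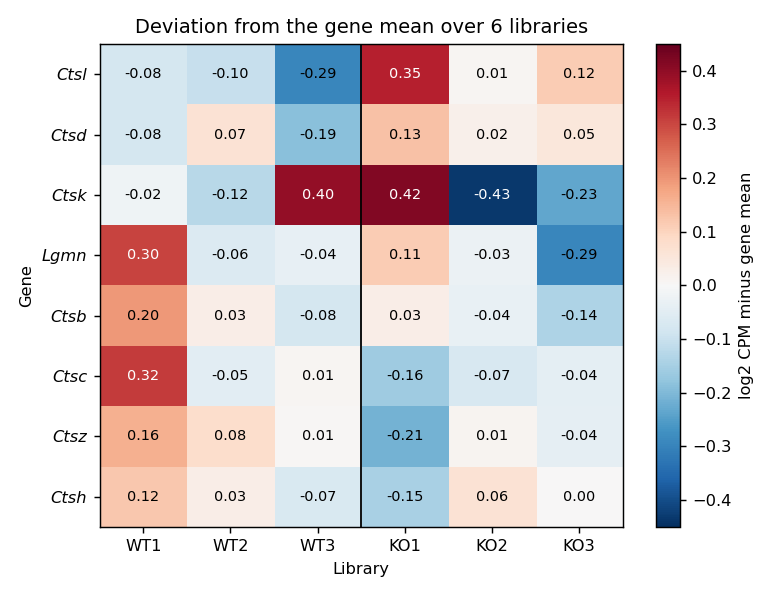
Log2 CPM of each gene in each library minus that gene's mean over the 6 libraries (colour and printed value; the line divides WT from KO). KO1 is the highest library for Ctsl (0.35), Ctsd (0.13) and Ctsk (0.42) and the lowest for Ctsc (-0.16), Ctsz (-0.21) and Ctsh (-0.15), while WT1 is the highest for Lgmn, Ctsb, Ctsc, Ctsz and Ctsh.

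The 8 genes did not move as a block across libraries. WT replicate 1 was the highest library for Ctsb, Ctsc, Ctsh, Ctsz and Lgmn, at 0.12 to 0.32 log2 units above the gene means, and was below the mean for Ctsd and Ctsl. KO replicate 1 was the highest for Ctsl, Ctsd and Ctsk and the lowest for Ctsc, Ctsz and Ctsh. Leaving out WT replicate 1 brought 4 negative values (Ctsb, Ctsc, Ctsh and Lgmn) to between -0.072 and -0.004. The mean over the 8 genes was 0.115, -0.016 and -0.032 log2 units in WT and 0.065, -0.057 and -0.073 in KO.

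Counting error is small beside this spread. In its lowest library a gene's count alone would give a relative error of 0.403% for Ctsb and 1.17% for Ctsh. The coefficients of variation among 3 libraries were 3.96% to 14.7% for the 7 genes other than Ctsk. For Ctsk they were 19.9% in WT and 32.5% in KO, with a counting error of 5.43%.

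Within the family the share of Ctsl was higher in KO. Ctsl took 10.4%, 11.4% and 10.6% of the reads of the 8 genes in WT and 15.1%, 12.5% and 13.7% in KO. The share of Ctsb was 24.5%, 24.2% and 23.9% in WT and 23.5%, 23.5% and 22.3% in KO, again without overlap, while those of the other 6 overlapped. Because shares sum to a fixed total, a higher share of Ctsl lowers those of the other genes. The levels of Ctsb in CPM overlapped between the groups, and the shares were not tested.

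**Figure D3:**
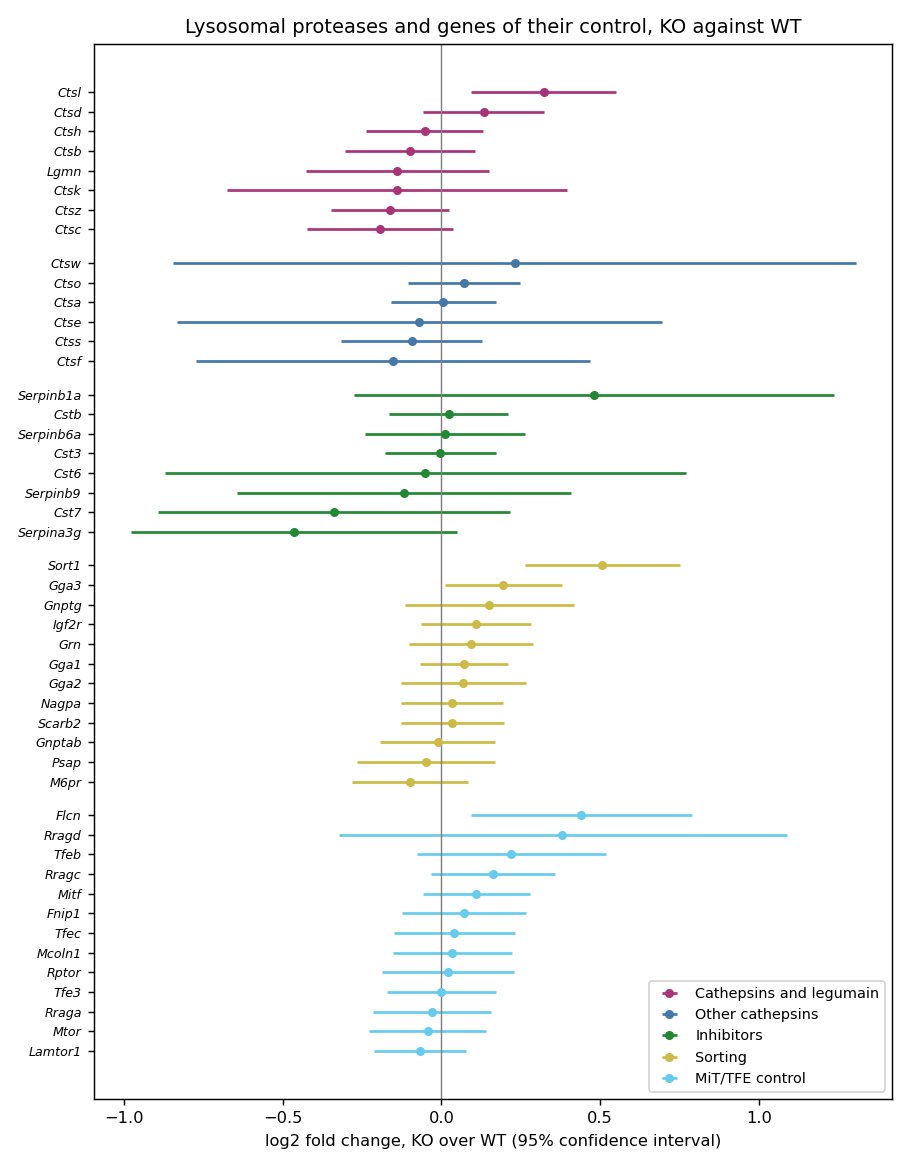
Log2 fold change of KO over WT with its 95% confidence interval (6 libraries, edgeR) for the 8 genes and for tested genes of 4 lists around them, coloured by list. The interval of Ctsl (0.09 to 0.55) lies above 0, as do those of Sort1, Gga3 and Flcn, and no gene shown passed at an adjusted p under 0.05.

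Other cathepsins were as little different. Of 16 listed, 6 were tested, with 3 positive and 3 negative values, a median log2 of -0.032 and none called or at an unadjusted p under 0.05. Ctss, the cathepsin that finishes invariant chain processing in most antigen-presenting cells, was the most abundant with 3747, 3979 and 3532 CPM in WT and 3069, 3883 and 3596 CPM in KO (log2 -0.094, SE 0.0993, edgeR adjusted p = 0.851). KO replicate 1 was again the lowest library, and without it the log2 value was -0.005. Ctso was at 44.2 ± 2.52 and 46.4 ± 2.46 CPM (SD, n = 3 each; log2 0.070), and Ctsf and Ctsw were near 2 to 5 CPM. Ctsw, a cathepsin of T and NK cells, was highest at 4.46 CPM in KO replicate 2, the library with the highest T and NK marker sum. Whether those cells were its source was not tested. Ctsg, a neutrophil granule protease, had 0 to 3 counts, and 9 others (Ctsj, Ctsm, Ctsq, Ctsr, Cts3, Cts6, Cts7, Cts8 and Ctsll3), most of them known from the placenta, had 0 counts in each library, which allows up to 0.159 CPM in the shallowest.

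Cystatins and serpins, families that include inhibitors of these enzymes, also gave no call. Whether each listed gene acts on the 8 proteases was not tested. Of 15 listed, 8 were tested, 3 positive and 5 negative, with a median log2 of -0.027 and none at an unadjusted p under 0.05. Serpina3g, a serpin that inhibits cysteine cathepsins, was at 74.9, 63.3 and 70.2 CPM in WT and 31.5, 58.5 and 60.9 CPM in KO. All KO values were below all WT values (log2 -0.47, SE 0.222, edgeR adjusted p = 0.725), and KO replicate 1 was the lowest. Without KO replicate 1 its log2 value was -0.22. Cst7, cystatin F, was at 3.85 ± 0.668 and 3.05 ± 0.738 CPM (SD, n = 3 each; log2 -0.34, SE 0.248). Serpinb1a and Serpinb9 had log2 values of 0.48 (SE 0.339) and -0.12 (SE 0.227), and ran from 0.26 to 0.83 and from -0.35 to 0.099 with a library left out. Cst7 ran from -0.55 to -0.21.

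Genes that carry lysosomal enzymes to their compartment were more often positive, 9 of 12, with a median log2 of 0.07. None was called, and 2 were at an unadjusted p under 0.05, both higher. Sort1 encodes sortilin, a sorting receptor of the Golgi, and was at 13.9, 13.7 and 14.4 CPM in WT and 19.5, 22.2 and 18.1 CPM in KO. The groups were well apart (log2 0.51, SE 0.110), and the test over all genes was not passed (edgeR adjusted p = 0.694). Gga3, an adaptor that loads mannose 6-phosphate receptors into vesicles, was at 31.2 ± 1.63 and 35.7 ± 1.63 CPM (SD, n = 3 each), without overlap. Its log2 value was 0.20 (SE 0.0819, edgeR adjusted p = 0.713). Igf2r and M6pr, the receptors themselves, had values on either side of 0, at 0.11 (SE 0.0774) and -0.099 (SE 0.0818), M6pr being named after its value was seen. Gnptg, a subunit of the enzyme that makes the tag, was at 0.15 (SE 0.120), or 0.075 without WT replicate 2 and 0.27 without WT replicate 1. Without WT replicate 3 the value of Igf2r was 0.064, and without WT replicate 1 that of M6pr was -0.046.

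The MiT/TFE factors and the proteins that control them had 9 positive and 4 negative values among 13, a median log2 of 0.04, no call and 1 gene at an unadjusted p under 0.05. That gene was Flcn, folliculin, which acts on the Rag GTPases to keep TFEB and TFE3 out of the nucleus. It was at 59.1, 69.2 and 66.6 CPM in WT and 90.2, 107 and 67.7 CPM in KO, where KO replicate 3 lay within the WT range (log2 0.44, SE 0.152, edgeR adjusted p = 0.701). Without KO replicate 2 its value was 0.28. Tfeb was at 20.4 ± 0.813 and 23.7 ± 4.62 CPM (SD, n = 3 each; log2 0.22, SE 0.133), and it was 0.049 without KO replicate 2. Mitf and Rragc, a Rag GTPase, had log2 values of 0.11 (SE 0.0753) and 0.16 (SE 0.0875). Mitf was at 0.065 without WT replicate 1, and Rragc at 0.072 without KO replicate 1.

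Class II genes and endosomal Toll-like receptors were compared last. All 8 class II genes (invariant chain, class II chains, processing partners and Ciita) had negative values with a median log2 of -0.16, and none was called or at an unadjusted p under 0.05. Their sum was 11480, 13100 and 12060 CPM in WT and 6571, 14170 and 12430 CPM in KO. KO replicate 1 was thus far below the other 5 libraries, and the other KO libraries were within or above the WT range. The same library was the lowest in Ctsc, Ctsz, Ctsh and Ctss, and its T and NK cell sum, 17.8 CPM, was the lowest too. Its dendritic cell sum, 22.8 CPM, lay within the range of the others, but 14.7 CPM of that was Ccr7. Among the other dendritic cell genes, KO replicate 1 was the lowest library for Zbtb46 (0.883 CPM), Clec9a (1.40 CPM), Cd209a (1.09 CPM) and Xcr1 (0 counts). These genes were at 1.58 to 2.54, 2.04 to 4.59, 1.17 to 4.36 and 0.148 to 0.548 CPM in the other 5 libraries. Snx22 was lowest there too, at 0.883 CPM against 0.887 CPM in KO replicate 3. Other genes of the list did not follow. KO replicate 1 was at 0.987 CPM for Flt3, 0.831 for Itgae and 1.97 for Dpp4. The lowest libraries of these were at 0.246 (KO replicate 3), 0.655 (WT replicate 2) and 1.71 CPM (WT replicate 2). Whether these differences share a source was not tested. Cd74, the invariant chain, named after its values were seen, was at 4999, 5720 and 5249 CPM in WT and 2813, 6230 and 5372 CPM in KO, and its log2 value went from -0.15 to 0.12 without KO replicate 1. For Ifi30, H2-DMa, H2-DMb1 and Ciita the values were -0.091, -0.20, -0.27 and -0.35, and -0.018, -0.004, -0.059 and -0.081 without it.

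Endosomal Toll-like receptors and their chaperone Unc93b1 had negative values in 6 of 6, a median log2 of -0.19 and no call, with 1 at an unadjusted p under 0.05. Tlr3 was at 16.5, 13.3 and 14.3 CPM in WT and 12.2, 12.1 and 12.4 CPM in KO, without overlap (log2 -0.27, SE 0.118, edgeR adjusted p = 0.713). Tlr9 was at 36.1, 21.0 and 26.5 CPM in WT and 15.0, 22.4 and 23.3 CPM in KO, with overlap (log2 -0.46, SE 0.225). Tlr8 and Unc93b1 had values of -0.20 (SE 0.110) and -0.17 (SE 0.0888). WT replicate 1 was the highest library for Tlr3, Tlr8, Tlr9 and Unc93b1, and without it their values were -0.18, -0.056, -0.23 and -0.11. Without KO replicate 1 the value of Tlr9 was -0.28.

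**Figure D4:**
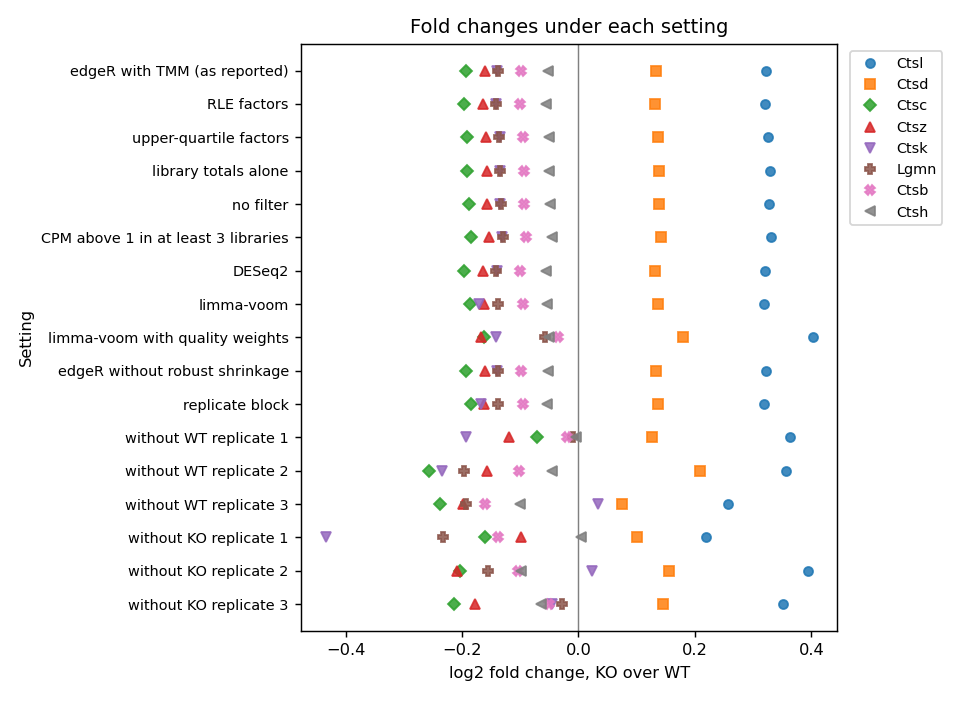
Log2 fold change of KO over WT of each of the 8 genes (x axis) under the reported setting and 16 alternatives (y axis), 1 marker shape per gene. Ctsl stays between 0.22 and 0.40 and Ctsd between 0.07 and 0.21, whereas Ctsk runs from -0.43 to 0.03 and Ctsb, Ctsh and Lgmn come close to 0 when WT replicate 1 is left out.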

How the data were processed

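The authors deposited raw read counts per gene, whole numbers that were not normalized. Per the submitters' processing notes, Trimmomatic, HISAT2, Cufflinks, HTSeq and mm10 were used, with no versions or roles, and per the labels' protocols libraries were made with a stranded kit that selects mRNA. The strand setting and the handling of multi-mapping reads are not given in the sources used here. Fdft1 and Nelfcd overlap Ctsb and Ctsz on the opposite strand, so small parts of those counts are uncertain.

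After edgeR's filterByExpr (count at least 10, total at least 15), 12136 genes holding 99.962% of reads were tested. All 8 members passed. KO was compared with WT over the whole table with the quasi-likelihood test of edgeR 4.0.16 in R 4.3.3 (TMM scaling, robust shrinkage, genotype as the only term), and Benjamini-Hochberg adjusted p-values were called under 0.05. Standard errors are the log2 fold change over the square root of F, and intervals use its degrees of freedom. Non-overlap means that all KO values lie on 1 side of all WT values. The floor of 3 counts covers counting error only.

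The genes and lists were chosen with earlier results of these data known. Named were the 8 members, Trmt61a, up to 4 genes of each list with the smallest p, and the 5 genes most like the members' mean, Ctsk and Lgmn, of which 1 is not reported here. Markers of other cells were given as sums. Alternatives were other scalings, filters and tools (DESeq2 1.42.0, limma 3.58.1), a replicate block and each library left out. Gene positions and lengths are from GENCODE M21 on GRCm38, and upstream sequences are from RefSeq on GRCm38.p6. No protein sequence was used here.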

Additional observations from a re-analysis of the deposited data

How the results depend on the processing

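In 16 alternatives 0 of the 8 genes were called, and the sign of the log2 value was kept in all but 3 of 128 combinations of gene and alternative. These were Ctsh without KO replicate 1 (0.004) and Ctsk without WT replicate 3 (0.033) or KO replicate 2 (0.023). Among other named genes the sign changed for Cd68 without KO replicate 2 (-0.005), Cd74 (0.124) and Serpinb9 (0.099) without KO replicate 1, Ctsf without WT replicate 2 (0.044) or KO replicate 2 (0.011), and Ctsw with limma-voom (-0.009), with quality weights (-0.137) or without KO replicate 2 (-0.576). Left-out libraries moved these genes between -0.101 and 0.004 (Ctsh), -0.434 and 0.033 (Ctsk), -0.005 and 0.081 (Cd68), -0.379 and 0.124 (Cd74), -0.420 and 0.044 (Ctsf), -0.576 and 0.562 (Ctsw), and -0.348 and 0.099 (Serpinb9). No cause was tested.

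The counts over all genes moved more. Genes called lower numbered 19 with DESeq2, 3 with limma-voom and quality weights, 1 with RLE factors, upper-quartile factors, library totals alone, no filter, limma-voom or the replicate block, and 0 with the filter on CPM above 1, against 2. With a library left out they numbered 0 to 2. Genes called higher numbered 8 with DESeq2 and 1 with quality weights, against 0, and 0 to 3 with a library left out. Members at an unadjusted p under 0.05 numbered 0 to 3 with a library left out, against 1. The labels do not say that the replicate numbers pair the samples. Deviations from the group means correlated at -0.057, -0.094 and -0.109 between libraries of the same number. Between libraries of unlike number they correlated at 0.015 to 0.080. With 3 libraries per group these values cannot decide whether samples were paired. With the replicate block the log2 value of Ctsl was 0.318 (adjusted p = 0.826).

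The number of libraries limits the precision: the 95% interval of log2 change was -0.237 to 0.130 for Ctsh and -0.676 to 0.396 for Ctsk.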

Other observations

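The genes most like these proteases across the 6 libraries were searched among 8437 genes with a mean of at least 10 CPM, by Pearson's r of log2 CPM and with no test, since the best of so many values is high in any case. Closest to the mean of the 8 genes were Tln1, the adhesion adaptor talin (r = 0.986), Folr2, a folate receptor of tissue macrophages (0.975), Cep290 (0.969), Kcnk13 (0.965) and Mpp5 (0.961). Closest to Lgmn were Heatr6 (0.997), Nop9 (0.996), Atxn7l3b (0.994), Mfsd1, a transporter of the lysosomal membrane (0.988), and Ms4a7 (0.988), and among the closest to Ctsk were Scoc (0.987), Ankrd12 (0.978), Zhx1 (0.965) and Slc4a2 (0.959).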
